A study of Schizosaccharomyces pombe with 10 samples.

Results

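The genes examined were 7 genes of copper handling and metal binding in the fission yeast Schizosaccharomyces pombe: ctr4 (SPCC1393.10), ctr5 (SPAC1142.05), ctr6 (SPBC23G7.16), cuf1 (SPAC31A2.11c), ccs1 (SPAC22E12.04), sod1 (SPAC821.10c) and zym1 (SPAC22H10.13). They were found by their IDs among the 6661 features of the count table, and all 7 were among the 5734 features that passed the filter on low counts. The group was chosen by the fall of sod1 and the rise of zym1 in camptothecin-treated cells, with the copper genes added around them. Camptothecin against untreated cells is therefore given as a description, with no p-value, and counts past the threshold there are read as nothing more. Cells of strain PT286 were grown in YES, a rich yeast extract medium, at 30 °C. For the stress groups, culture to 16 h was followed by a change of medium and 8 h with an agent. The agents were camptothecin (20 µM), which traps topoisomerase I on DNA, hydroxyurea (10 mM), which inhibits ribonucleotide reductase, methyl methanesulfonate (MMS, 0.02 %), which alkylates DNA, and phleomycin (5 µg/mL), which breaks DNA strands. A group without agent, which the sample titles mark WT, completed the set. Whether it went through the change of medium and the further 8 h is not stated, so in comparisons with untreated cells these cannot be told apart from the agents. Each of the 5 groups had 2 RNA-seq libraries of total RNA, and no further genotype of the strain is given.

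Copper enters fission yeast cells through a complex of Ctr4 and Ctr5 in the plasma membrane, and Ctr6 moves copper out of the vacuole. When copper is scarce, the copper-sensing factor Cuf1 binds copper-signalling elements (CuSE) and switches on ctr4, ctr5 and ctr6, and in the same state it holds down the iron uptake genes fio1, fip1 and frp1. Sod1, a copper- and zinc-containing superoxide dismutase of the cytosol, receives its copper from the chaperone Ccs1. Zym1 is a small metallothionein, a cysteine-rich protein that binds metal ions.

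Stretches of DNA before ctr4, ctr5 and ctr6 are shown because these are the known Cuf1 targets and because ctr4 and ctr5 moved together. They were read by gene ID from the RefSeq sequence and annotation of assembly ASM294v3. The build behind the counts is not given in the sources used here. All are on the plus strand, the strand of the genes, 5′ to 3′, and capitals mark matches to the CuSE consensus.
ctr4, chrIII:817844-817888: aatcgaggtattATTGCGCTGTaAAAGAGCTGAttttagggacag
ctr5, chrI:3635280-3635327: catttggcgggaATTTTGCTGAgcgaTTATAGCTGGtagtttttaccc
ctr6, chrII:2100051-2100084: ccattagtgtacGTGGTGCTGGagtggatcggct

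The matches shown began 603 and 592 bases before the start codon of ctr4, 473 and 459 bases before that of ctr5, and 210 bases before that of ctr6. Both ctr4 and ctr5 thus held a close pair of matches in the same orientation, and ctr6 held a single match near its annotated transcript start. Further matches, at 918 and 721 bases in ctr4, 343 and 225 in ctr5 and 982 and 931 in ctr6, are not shown. How many other genes hold such a close pair was not counted. In the 1000 bases before the start codon, a window chosen after the values were seen, both strands searched and matches of a strand allowed to overlap, ctr4 and ctr5 held 4 matches each, ctr6 3, cuf1, ccs1 and zym1 1 each, and sod1 0. The consensus is loose: 64.9 % of 5145 such windows held at least 1 match, and 2.24 % held 4 or more. In the window from 250 bases before to 50 after the annotated transcript start, ctr5 held 3 matches, ctr6 and cuf1 1 each and the others 0, against 26 % of all windows with a match. No transcript leader is annotated for ctr4, so its window there is set around the start codon, and its 4 matches lie farther upstream. The core of the Atf1 site, TGACGT, was found in that window of ccs1 alone among the 7 (5.95 % of all windows), and the Fep1 motif ATCAGATAA or ATCTGATAA in none of the 7 (1.15 % of all windows).

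Library totals ran from 37301356 to 48598533 counts, and the members held between 1283 and 67121 counts in a library. The labels name no separate cultures for the libraries of a group, so p-values rest on a spread between libraries that could be technical alone. Replicates differed by more than counting noise (chi-square per feature 3.34 to 3.71). Over the 4 comparisons with untreated cells, between 71.2 and 82.9 % of tested features passed the threshold, an adjusted p under 0.05 by the quasi-likelihood test of edgeR. A call alone therefore sets a gene little apart, and sizes are given throughout. Levels are CPM, counts scaled to the size of the library, and changes are log2 fold changes ± SE.

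**Figure D1:**
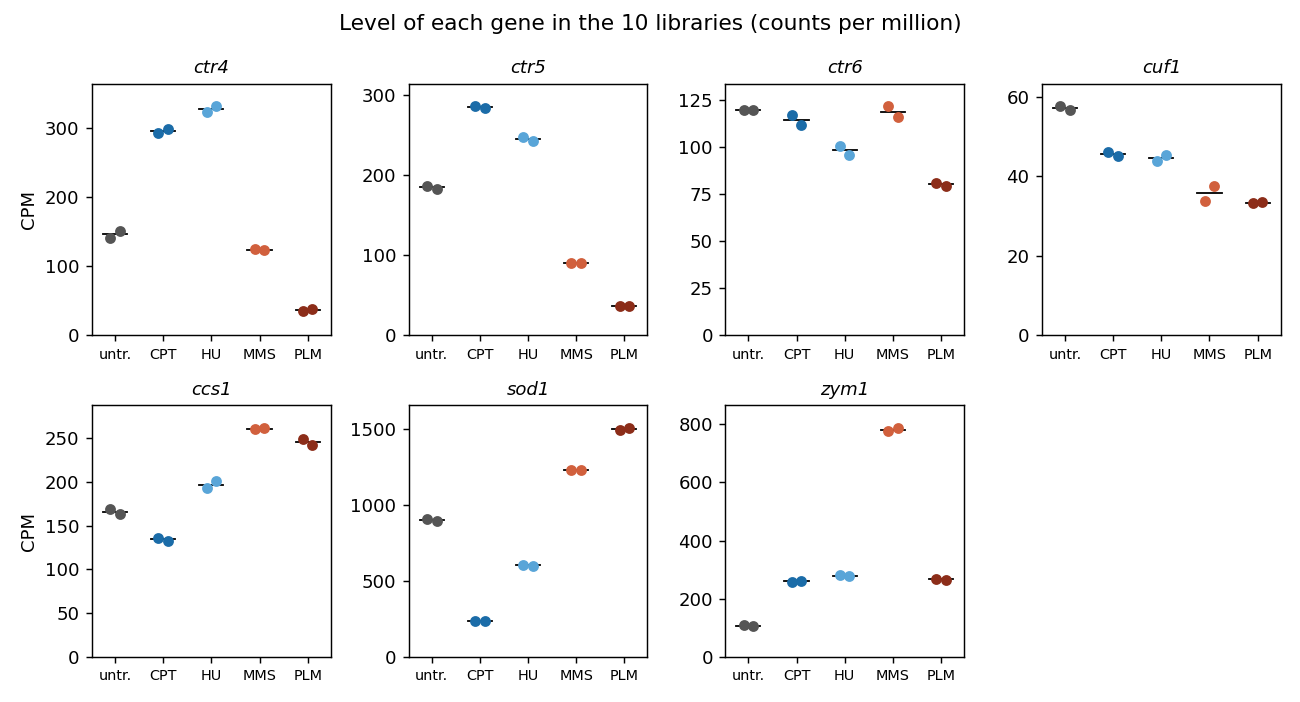
Level of each of the 7 genes in CPM (y axis, linear from 0) in the 5 groups; points are the 2 libraries of a group and lines their mean. The libraries of ctr4 and ctr5 are highest with camptothecin and hydroxyurea and lowest with phleomycin, those of sod1 are lowest with camptothecin and highest with phleomycin, and those of zym1 are highest with MMS.

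Compared per length in untreated cells, sod1 was the most abundant of the 7 at 1180 ± 11.7 RPKM (CPM per kilobase of exon; ± SD, n = 2 libraries as for every group). Then came zym1 at 201 ± 2.66, ctr4 at 162 ± 7.26, ctr5 at 159 ± 2.10, ccs1 at 152 ± 4.08 and ctr6 at 150.4 ± 0.371, and cuf1 was lowest at 26.8 ± 0.260 RPKM. The levels of ctr4 and ctr5, and those of ccs1 and ctr6, lay within their spread. With MMS zym1 reached 1460 ± 13.6 RPKM, close to sod1 in the same cells at 1614 ± 0.942. With camptothecin zym1 passed sod1, 485 ± 4.27 against 312 ± 3.48 RPKM. Both genes were chosen by their change with camptothecin, so this crossing is a description.

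The copper importer genes ctr4 and ctr5 were high with camptothecin and hydroxyurea and low with phleomycin. The level of ctr4 in untreated cells was 142 and 151 CPM; camptothecin libraries had 294 and 299.9, hydroxyurea 324 and 332, MMS 124 and 124, and phleomycin 35.3 and 37.5. The level of ctr5 was 187 and 183 CPM untreated, 286 and 284 with camptothecin, 248 and 243 under hydroxyurea, 90.3 and 89.99 under MMS and 36.7 and 35.96 with phleomycin. No groups overlapped for either gene. From the lowest to the highest group the span was 9.01-fold for ctr4 and 7.84-fold for ctr5, more than for 99.2 and 98.9 % of the 4476 features with a mean of 10 CPM or more.

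With hydroxyurea ctr4 rose by 1.16 ± 0.029 on the log2 scale (2.24-fold, adjusted p = 8.995e-43) and ctr5 by 0.41 ± 0.028 (1.33-fold, adjusted p = 2.65e-20; 0.62 under quantile normalization). Under phleomycin both fell, ctr4 4.02-fold (log2 -2.01 ± 0.037, adjusted p = 8.86e-51) and ctr5 5.10-fold (log2 -2.35 ± 0.035, adjusted p = 8.64e-56). With MMS ctr5 fell 2.05-fold (log2 -1.04 ± 0.031, adjusted p = 5.51e-39) and ctr4 fell by less, 1.18-fold (log2 -0.24 ± 0.031, adjusted p = 4.16e-10; -0.15 with library totals alone or under quantile normalization). With camptothecin the levels were 2.03-fold (log2 1.02 ± 0.029) and 1.54-fold (log2 0.62 ± 0.028) those of untreated cells, for ctr4 and ctr5 in turn. The 2 subunit genes did not move by the same factor: the ratio of ctr4 to ctr5 per length was 0.978 and 1.06 in untreated cells and higher in every treated library, 1.32 and 1.36 with camptothecin, 1.69 and 1.76 under hydroxyurea, 1.78 and 1.77 under MMS, and 1.24 and 1.35 under phleomycin.

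Part of the annotated span of ctr5, 38.7 %, is shared with SPNCRNA.923, a non-coding feature of the opposite strand. That feature had 8 and 12 counts untreated, 12 and 2 with camptothecin, 18 and 28 under hydroxyurea, 81 and 85 under MMS and 227 and 244 with phleomycin. It was thus highest in the libraries where ctr5 was lowest, at 5.66 and 5.48 CPM with phleomycin. It rose 2.18-fold with hydroxyurea (log2 1.12 ± 0.50, adjusted p = 0.0372), where ctr5 rose too, 8.41-fold with MMS (log2 3.07 ± 0.40, adjusted p = 4.63e-10) and 22.5-fold with phleomycin (log2 4.49 ± 0.36, adjusted p = 8.84e-18). No source says that counting used the strand, so reads of the shared bases cannot be told apart, and the part of this overlap in the fall of ctr5 was not tested.

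**Figure D2:**
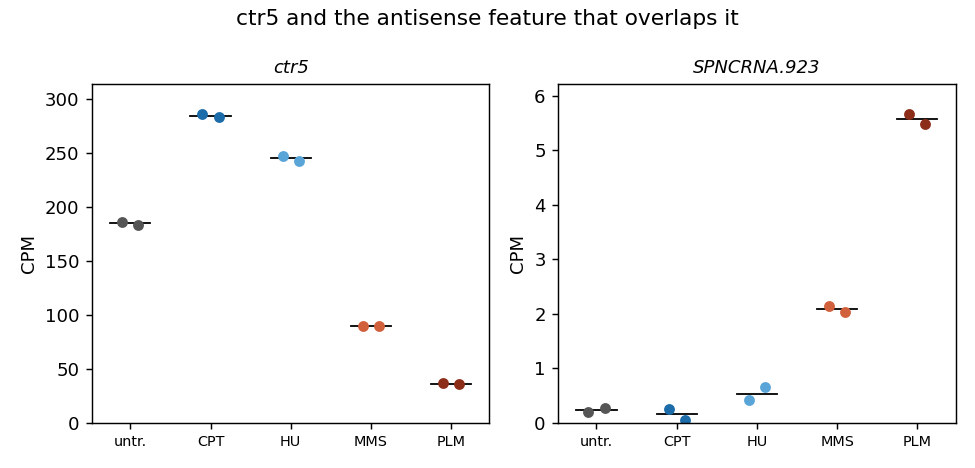
CPM (y axes, linear from 0, scales differ) of ctr5 on the left and of SPNCRNA.923, which overlaps it on the opposite strand, on the right, in the 5 groups; points are libraries and lines their mean. The antisense feature reaches 5.66 CPM with phleomycin, where ctr5 is at 36.7 and 35.96 CPM.

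The vacuolar transporter gene ctr6 varied less than ctr4 and ctr5; like them it was lowest with phleomycin, but it was not higher with camptothecin or hydroxyurea. It stood at 120.1 and 119.7 CPM untreated, 117 and 112 with camptothecin, 101 and 96.0 under hydroxyurea, 122 and 116 under MMS and 81.3 and 79.4 with phleomycin. It fell with phleomycin (log2 -0.58 ± 0.038, adjusted p = 1.89e-21) and, by less, with hydroxyurea (-0.28 ± 0.037, adjusted p = 6.03e-10), where ctr4 and ctr5 rose; the latter was -0.17 under quantile normalization and -0.10 with library totals alone. The libraries of MMS overlapped those of untreated cells (-0.011 ± 0.037, adjusted p = 0.786), a sign that turned without MMS replicate 2 (0.023), with library totals alone (0.078) and under quantile normalization (0.071), and with camptothecin the difference was -0.061 ± 0.037. In the RefSeq annotation SPNCRNA.5491 overlaps 91.1 % of the exon bases of ctr6 on the opposite strand, and that feature was not analysed here.

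The regulator gene cuf1 was lower with every agent. From the lowest mean up its agents ran phleomycin, MMS, hydroxyurea and camptothecin, the order of ctr5. Untreated cells were highest in cuf1, unlike in ctr4 and ctr5, where they stood between MMS and the 2 agents above. Its level was 57.6 and 56.8 CPM untreated, 46.2 and 45.2 with camptothecin, 43.8 and 45.5 under hydroxyurea, 33.9 and 37.6 under MMS and 33.2 and 33.6 with phleomycin. Camptothecin and hydroxyurea overlapped. The log2 fold changes were -0.36 ± 0.055 with hydroxyurea (adjusted p = 5.06e-08), -0.68 ± 0.057 with MMS (adjusted p = 9.44e-17) and -0.78 ± 0.057 with phleomycin (adjusted p = 2.38e-19), and the difference with camptothecin was -0.32 ± 0.056. With library totals alone the hydroxyurea value was -0.17. SPNCRNA.2160 and SPNCRNA.2161, which overlap 21 and 6 % of the exon bases of cuf1 on the opposite strand, were not analysed here.

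The superoxide dismutase gene sod1 was low with camptothecin and hydroxyurea and high with MMS and phleomycin. Its level was 907 and 894 CPM untreated, 239.6 and 236 with camptothecin, 606 and 602 under hydroxyurea, 1231 and 1232 under MMS and 1494 and 1508 with phleomycin. No groups overlapped, and the span from camptothecin to phleomycin was 6.32-fold. With camptothecin, the comparison that chose the gene, the level was 3.79-fold lower (log2 -1.92 ± 0.019). In the comparisons that did not choose it, sod1 fell 1.49-fold with hydroxyurea (log2 -0.58 ± 0.017, adjusted p = 2.12e-38), rose 1.37-fold with MMS (0.45 ± 0.017, adjusted p = 1.53e-33) and rose 1.67-fold with phleomycin (0.74 ± 0.017, adjusted p = 2.81e-45). These share the untreated libraries with the camptothecin comparison. Under quantile normalization the changes of sod1 were -0.27 with hydroxyurea, 0.82 with MMS and 0.87 with phleomycin. No annotated feature overlaps sod1.

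Its copper chaperone gene ccs1 shared the rises but not the fall under hydroxyurea. It stood at 169 and 163 CPM untreated, 136 and 132 with camptothecin, 193 and 201 under hydroxyurea, 260.1 and 261 under MMS and 249 and 242 with phleomycin. It rose with hydroxyurea (log2 0.25 ± 0.028, adjusted p = 1.16e-11), MMS (0.65 ± 0.028, adjusted p = 1.71e-30) and phleomycin (0.57 ± 0.028, adjusted p = 2.04e-27), and with camptothecin it was lower by -0.30 ± 0.030 on the log2 scale. Per length, sod1 exceeded ccs1 by 7.67 and 7.85 times in untreated cells, 2.51 and 2.55 times with camptothecin, 4.49 and 4.29 times with hydroxyurea, 6.77 and 6.74 times with MMS, and 8.59 and 8.90 times with phleomycin. The ratio was lowest with camptothecin, where sod1 was lower by much more than ccs1, a description because sod1 was chosen by its fall there. An overlap with rer1 on the opposite strand covers 5.77 % of the exon bases of ccs1, and SPNCRNA.4258, also opposite and not analysed here, covers 82.2 %. The rise of ccs1 with hydroxyurea was 0.43 both with library totals alone and under quantile normalization.

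**Figure D3:**
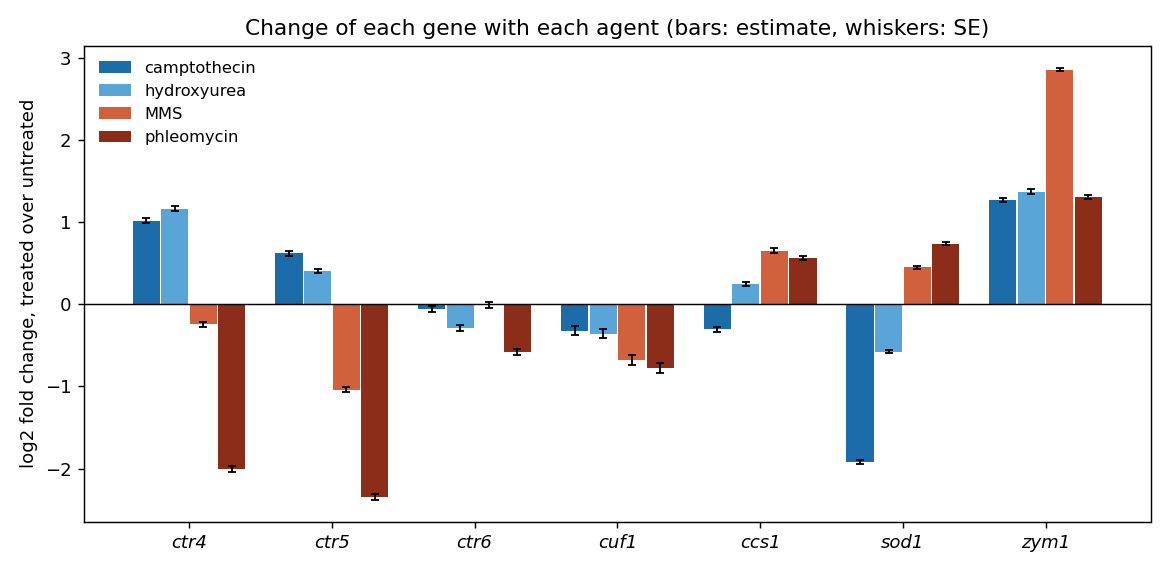
log2 fold change of each gene, treated over untreated, with each agent (bars, with SE as whiskers). For ctr4 and ctr5 the bars of camptothecin and hydroxyurea point up and those of MMS and phleomycin down; for sod1 the same agents point the other way, and for zym1 all 4 bars point up.

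Set side by side, sod1 changed opposite to ctr4 and ctr5 with hydroxyurea, MMS and phleomycin. With camptothecin the levels also lay on opposite sides of untreated cells, but that comparison chose the genes and adds nothing to the 3. From the lowest group up, sod1 ran camptothecin, hydroxyurea, untreated, MMS, phleomycin, and ctr5 ran in the reverse order, the place of camptothecin being a description. In ctr4 the order was that of ctr5 but for the top, where hydroxyurea (328 ± 5.37 CPM) stood above camptothecin (297 ± 4.41 CPM). The sizes did not mirror each other. Hydroxyurea gave the larger difference in ctr4 (1.16 on the log2 scale, camptothecin 1.02), whereas the difference in sod1 was -0.58 with hydroxyurea and -1.92 with camptothecin. Of the other genes that Cuf1 is known to switch on, ctr6 was not higher in either. Neither copper nor Cuf1 protein was measured, so whether copper supply had a part in the level of sod1 was not tested.

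**Figure D4:**
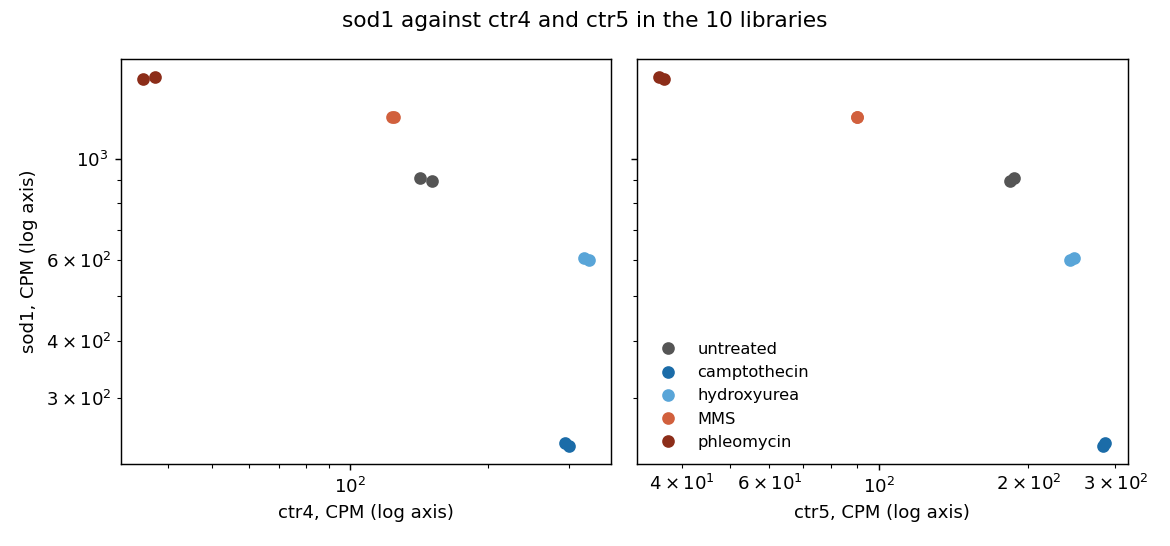
sod1 (y axis, CPM, log scale) against ctr4 on the left and ctr5 on the right (x axes, CPM, log scale); each point is 1 of the 10 libraries. The groups step down from phleomycin, with sod1 at 1494 and 1508 CPM and ctr4 at 35.3 and 37.5, to hydroxyurea and camptothecin at the lower right.

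The iron uptake genes that Cuf1 is known to hold down when copper is scarce were low with camptothecin and high with MMS. The ferroxidase gene fio1, whose product carries copper, stood at 76.4 and 76.4 CPM untreated, 32.6 and 29.7 with camptothecin, 76.9 and 74.1 under hydroxyurea, 813 and 824 under MMS and 140.4 and 142.5 with phleomycin. Its partner, the iron permease gene fip1, stood at 15.7 and 17.3 CPM untreated, 10.6 and 10.4 with camptothecin, 23.7 and 23.9 under hydroxyurea, 229.5 and 238 under MMS and 44.8 and 45.1 with phleomycin. The ferric reductase gene frp1 stood at 166 and 164 CPM, 118 and 120.3, 131 and 136, 592 and 589, and 61.7 and 62.0, in the same order. With MMS, where ctr5 fell and ctr4 fell slightly, fio1 rose 10.7-fold (log2 3.42 ± 0.029, adjusted p = 2.07e-69), fip1 14.1-fold (3.82 ± 0.052, adjusted p = 1.03e-57) and frp1 3.59-fold (1.84 ± 0.026, adjusted p = 5.76e-57). With phleomycin, where ctr4 and ctr5 were lowest, fio1 rose 1.85-fold (0.89 ± 0.031, adjusted p = 2.16e-35) and fip1 rose 2.72-fold (1.44 ± 0.057, adjusted p = 2.32e-32) but frp1 fell 2.66-fold (-1.41 ± 0.031, adjusted p = 1.74e-46). Under hydroxyurea, where ctr4 rose most, fio1 did not pass the threshold (-0.017 ± 0.033, adjusted p = 0.653), fip1 rose (0.52 ± 0.062, adjusted p = 3.31e-11) and frp1 fell (-0.31 ± 0.028, adjusted p = 3.35e-15). With camptothecin the differences were -1.29 ± 0.039 for fio1, -0.65 ± 0.072 for fip1 and -0.47 ± 0.029 for frp1. All 3 genes were thus below untreated cells with camptothecin and above them with MMS, and they split under the other agents. These genes also answer to iron through the repressor Fep1, and the part of iron was not tested.

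**Figure D5:**
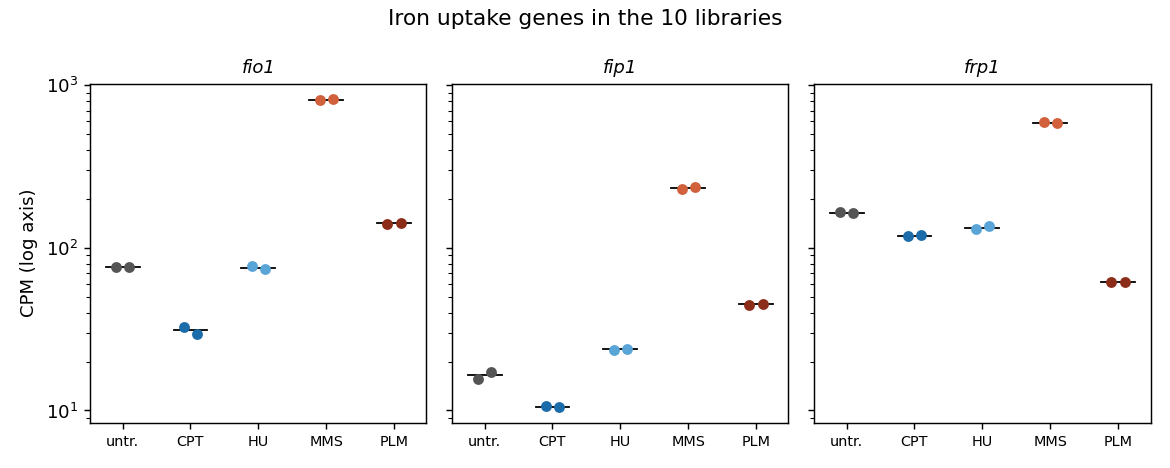
CPM (y axis, log scale) of fio1, fip1 and frp1 in the 5 groups; points are libraries and lines their mean. All 3 are highest with MMS, and fio1 and fip1 are lowest with camptothecin while frp1 is lowest with phleomycin.

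The metallothionein gene zym1 was higher with every agent, and with MMS by far the most. Its level was 109 and 107 CPM untreated, 258 and 261 with camptothecin, 281 and 277 under hydroxyurea, 776 and 786 under MMS and 268 and 266 with phleomycin. Camptothecin, phleomycin and hydroxyurea lay close together, within 258 to 281 CPM. It rose 7.26-fold with MMS (log2 2.86 ± 0.024, adjusted p = 1.53e-69), 2.59-fold with hydroxyurea (1.37 ± 0.025, adjusted p = 1.63e-50) and 2.48-fold with phleomycin (1.31 ± 0.025, adjusted p = 7.96e-50), and with camptothecin the level was 2.41-fold higher (1.27 ± 0.025). The tests of zym1 with MMS, hydroxyurea and phleomycin share the untreated libraries with the camptothecin comparison, by which zym1 was chosen. The rises of zym1 thus came both where ctr4 and ctr5 rose and where they fell. Of its 535 bases of exon none is shared with another annotated feature.

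Counts of the 7 genes past the threshold stood near those of all features. With hydroxyurea 4 rose and 3 fell, against 40.3 % of tested features rising and 38.8 % falling. With MMS 3 rose, 3 fell and ctr6 did not pass (39.5 and 40.9 % of all features). With phleomycin 3 rose and 4 fell (42.2 and 40.7 %). With camptothecin 3 were higher, 3 lower and ctr6 not past the threshold (35.2 and 35.9 %), from which nothing is read because this comparison chose the genes. The median log2 fold change of the 7 was 0.25 with hydroxyurea, -0.011 with MMS and -0.58 with phleomycin, beside 0.023, 0.0018 and 0.021 over all features. With library totals alone as the scaling, 67.7 % of called features rose with hydroxyurea in place of 50.95 %, and 65.0 % in place of 53.2 % were higher with hydroxyurea than with phleomycin. Under that scaling ctr6 with MMS, not past the threshold, changed sign (0.078); the other members kept their direction.

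Comparisons between agents set neither the untreated nor the camptothecin libraries against another group. They came from the same fit, so all 10 libraries entered the scaling, the filter and the shared estimate of spread behind each SE and p. Hydroxyurea exceeded phleomycin in ctr4 (log2 3.17 ± 0.035, adjusted p = 5.71e-62) and, 6.76-fold, in ctr5 (2.76 ± 0.034, adjusted p = 3.85e-59), and it was 2.49-fold lower in sod1 (-1.31 ± 0.017, adjusted p = 9.55e-58). Hydroxyurea exceeded MMS 2.65-fold in ctr4 (1.41 ± 0.030, adjusted p = 8.37e-47) and 2.72-fold in ctr5 (1.45 ± 0.030, adjusted p = 5.57e-47), and it was 2.04-fold lower in sod1 (-1.03 ± 0.017, adjusted p = 2.37e-52). MMS exceeded phleomycin 3.40-fold in ctr4 (1.77 ± 0.037, adjusted p = 8.25e-47) and 2.48-fold in ctr5 (1.31 ± 0.037, adjusted p = 7.25e-40), and it was 1.22-fold lower in sod1 (-0.29 ± 0.017, adjusted p = 1.22e-23). Under quantile normalization the last difference of sod1 was -0.058. These are the pairs of 3 groups and share libraries, so the direction between hydroxyurea and phleomycin follows from the other comparisons and is not a separate agreement.

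The vacuolar transporter gene ctr6 was 1.21-fold lower with hydroxyurea than with MMS (adjusted p = 2.34e-09), 1.23-fold higher with hydroxyurea than with phleomycin (adjusted p = 8.46e-10) and 1.48-fold higher with MMS than with phleomycin (adjusted p = 9.21e-21). The metallothionein gene zym1 was 2.80-fold lower with hydroxyurea than with MMS (adjusted p = 5.63e-56) and 2.93-fold higher with MMS than with phleomycin (adjusted p = 1.001e-56). Between hydroxyurea and phleomycin it differed by 0.065 ± 0.022 on the log2 scale (adjusted p = 0.00854), a call that was lost without hydroxyurea replicate 1 (adjusted p = 0.0897), with DESeq2 (0.054), with no filter on low counts (0.0906) and with these groups fitted alone (0.119). For cuf1 MMS and phleomycin differed by 0.10 ± 0.060 (adjusted p = 0.128), which passed without MMS replicate 1 (0.17, adjusted p = 0.0252) and under quantile normalization (0.19, adjusted p = 0.00596). For ccs1 they differed by 0.087 ± 0.027 (adjusted p = 0.00359), a sign that turned under quantile normalization. In counts, 3 members were higher and 4 lower with hydroxyurea than with MMS (39.4 and 34.2 % of all features), 5 higher and 2 lower with hydroxyurea than with phleomycin (37.8 and 33.3 %), and 5 higher, 1 lower and cuf1 not past the threshold with MMS than with phleomycin (35.8 and 36.2 %).

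Of 11 listed genes that carry copper onward, 8 were tested. Among them atx1, ccc2, cox17, cox19 and sco1 changed by less than 1 on the log2 scale with every agent. The cytosolic copper chaperone gene atx1 (108 and 109 CPM in untreated cells) rose with MMS (log2 0.35 ± 0.037, adjusted p = 3.78e-13) and fell with hydroxyurea (-0.35 ± 0.038, adjusted p = 2.13e-12) and phleomycin (-0.43 ± 0.039, adjusted p = 1.42e-15). The gene of its target, the copper ATPase ccc2 (155 and 159 CPM), rose with MMS (0.73 ± 0.029, adjusted p = 2.05e-32) and fell with hydroxyurea (-0.37 ± 0.030, adjusted p = 4.51e-17). With phleomycin ccc2 fell as well (-0.16 ± 0.030, adjusted p = 2.84e-06). Both thus took the direction opposite to ctr4 under hydroxyurea and MMS and the same direction under phleomycin. With camptothecin they differed from untreated cells by -0.14 ± 0.038 and 0.0041 ± 0.030. The list as a whole had 4 up and 3 down with hydroxyurea (all features 40.3 and 38.8 %), 4 up and 1 down with MMS (39.5 and 40.9 %), 5 up and 2 down with phleomycin (42.2 and 40.7 %), and 3 up and 2 down with camptothecin (35.2 and 35.9 %), with medians of 0.29, 0.28, 0.26 and 0.17. Under quantile normalization the 7 past the threshold with hydroxyurea became 4. The meiotic copper transporter gene mfc1, among the 3 smallest p with hydroxyurea and phleomycin, reached no more than 1.40 CPM in any library. Other features cover 91.8 % of its span, so its values are uncertain. The same holds for cmc1, at most 0.764 CPM and covered over 92.7 % of its span. Both mfc1 and cmc1 are among the genes counted up with hydroxyurea, MMS and phleomycin. With camptothecin mfc1 is counted up as well, but its libraries (0.564 and 0.167 CPM) overlapped those of untreated cells (0.0518 and 0.186 CPM). Low counts also limit cmc2, at most 1.84 CPM and counted down with camptothecin. The gene of a second, meiotic copper factor, cuf2, had 0 counts in all 10 libraries, a count that allows up to 0.0617 to 0.0804 CPM a library, and other features cover 100 % of its span.

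Among genes whose proteins carry copper, fio1 (above) and the amine oxidase genes cao1 and cao2 were tested of 5 listed. With MMS (39.5 % of all features up) and with phleomycin (42.2 %) all 3 rose. With hydroxyurea 1 rose, cao2, and 2 did not pass (40.3 % up, 38.8 % down over all features). All 3 passed there with library totals alone. With camptothecin 2 were up and 1 down (35.2 and 35.9 %). The gene cao2 is among those counted up with each agent. The gene cao1 rose with MMS (0.47 ± 0.043, adjusted p = 1.74e-15) and phleomycin (0.34 ± 0.043, adjusted p = 1.001e-10). The reads of cao2, at most 6.90 CPM, are uncertain because other features cover 94.5 % of its span.

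Of 13 genes that defend against superoxide and peroxide, 9 rose and 2 fell with MMS (all features 39.5 and 40.9 %), 4 rose and 7 fell with hydroxyurea (40.3 and 38.8 %), and 3 rose and 8 fell with phleomycin (42.2 and 40.7 %); with camptothecin 2 were up and 10 down (35.2 and 35.9 %). The medians were 0.39, -0.32, -0.28 and -0.28, in that order. The gene of the manganese superoxide dismutase, sod2, stood at 313 and 307 CPM untreated, 264 and 259 with camptothecin, 239 and 236 under hydroxyurea, 404 and 406 under MMS and 416 and 414 with phleomycin. Its libraries were thus on the same side of untreated cells as those of sod1 with each agent, with a difference under camptothecin of -0.25 ± 0.023 beside -1.92 for sod1. The peroxiredoxin gene tpx1 rose with hydroxyurea (0.85 ± 0.016, adjusted p = 5.12e-50), MMS (2.43 ± 0.016, adjusted p = 3.33e-75) and phleomycin (1.59 ± 0.016, adjusted p = 3.08e-65). The peroxiredoxin gene pmp20 fell with hydroxyurea (-1.18 ± 0.017, adjusted p = 1.58e-55) and phleomycin (-1.22 ± 0.017, adjusted p = 7.90e-57), and the stress factor gene atf1 fell with phleomycin (-1.04 ± 0.029, adjusted p = 5.11e-41). The thioredoxin reductase gene trr1, covered over 58.5 % of its span, rose with MMS (1.83 ± 0.027, adjusted p = 1.56e-55), as did the catalase gene ctt1 (0.85 ± 0.019, adjusted p = 8.64e-46), which differed by -0.11 ± 0.019 with camptothecin.

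Of 12 genes of zinc and metal detoxification 2 rose and 7 fell with hydroxyurea (all features 40.3 and 38.8 %), 4 rose and 7 fell with MMS (39.5 and 40.9 %), 2 rose and 8 fell with phleomycin (42.2 and 40.7 %), and 2 were up and 8 down with camptothecin (35.2 and 35.9 %), with medians of -0.24, -0.14, -0.084 and -0.18. With MMS, where zym1 was highest, the vacuolar phytochelatin transporter gene hmt1 (0.61 ± 0.024, adjusted p = 1.12e-32) and the glutathione synthesis gene gcs1 (0.42 ± 0.019, adjusted p = 1.78e-29) rose, and the phytochelatin synthase gene pcs2 fell (-0.91 ± 0.040, adjusted p = 8.59e-30). The zinc importer gene zrt1 (-0.47 ± 0.025, adjusted p = 3.93e-26) and the transcription factor gene zip1 (-0.44 ± 0.024, adjusted p = 4.69e-25) fell with hydroxyurea. The fall of hmt2 had the smallest adjusted p of the 12 with hydroxyurea (-0.68 ± 0.021, adjusted p = 8.39e-38) and with phleomycin (-0.94 ± 0.021, adjusted p = 1.30e-45). With MMS hmt2 fell as well (-0.40 ± 0.021, adjusted p = 1.96e-26), and with camptothecin it differed by -0.76 ± 0.021.

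Likeness of pattern was measured as the root mean square difference of log2 CPM over the 10 libraries, each gene centred on its own mean, among 3936 other tested protein-coding genes with a symbol. The values of ctr4 and ctr5 differed by 0.297, less than from any of these genes: the nearest to ctr4 was pfl2 at 0.619, followed by sum3 and shk2, and the nearest to ctr5 was pfl2 at 0.508, followed by put4 and sum3. The flocculin gene pfl2 ran 156, 204.5, 132, 109 and 51.7 CPM from untreated cells through camptothecin, hydroxyurea and MMS to phleomycin, lower with hydroxyurea than in untreated cells where ctr4 was higher. Nearest to sod1 were rng3 at 0.464, img2 at 0.507 and cir2 at 0.520; rng3 and img2 stayed under 12 CPM. Nearest to zym1 were hsp3101 at 0.309, mpf1 at 0.395 and tgp1 at 0.399, of which mpf1 had a mean under 1 CPM in every group. Nearest to ctr6 was osh41 at 0.0431, and nearest to cuf1 was rhs1 at 0.0505. The nearest to ccs1 was gup1 at 0.0927, followed by the glutathione reductase gene pgr1 at 0.105. The distance is not scaled to the size of a gene's changes, so members that vary little lie nearer to any gene. Its median over all these genes was 0.316 for ctr6, 0.333 for cuf1 and 0.462 for ccs1. It was 1.14 for ctr4, 1.09 for ctr5, 0.994 for sod1 and 0.968 for zym1. Between members, sod1 lay 0.655 from ccs1, 1.97 from ctr4 and 1.95 from ctr5. All these distances include the camptothecin and untreated libraries, whose contrast chose the group, so they are a description.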

How the data were processed

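The authors deposited 1 table of raw read counts per feature with a column for each of the 10 libraries, and per the submitters' processing notes the tools were HISAT2 and StringTie. For versions, genome build, annotation and strand setting, the sources used here give nothing. Of the 6661 IDs, 6540 matched ASM294v3 by locus tag and 11 by synonym, for symbols, lengths and neighbours; blastn 2.17.0+ found 0 near-identical copies (95 % identity over 50 % of length) of the 7 genes. A quasi-likelihood model in edgeR 4.0.16, run in R 4.3.3, was fitted to the counts, 1 model of the 5 groups, with TMM factors of 0.944 to 1.09, after filterByExpr, which left 5734 features, with 5 residual degrees of freedom. Tests were two-sided, with Benjamini-Hochberg adjustment across every feature tested. Standard errors are the absolute log2 fold change over the square root of F. The fit was tested on simulated data. RPKM was computed from these counts and annotated exon lengths. Replicate numbers did not pair libraries. Members and gene lists were chosen with earlier results of these data known. All 7 genes are named in every comparison with untreated cells. Of list genes, those named are among the 3 with the smallest adjusted p in a comparison, or were set for camptothecin. The genes cmc1 and cmc2 are named for their low counts, cox17 for its small changes, and SPNCRNA.923 and rer1 as overlapping features. Of the listed genes, cox11, cox23, cox1 and cox2 could not be tied to a single ID and were not used here. The floor given for cuf2 covers counting error only, whereas SE and SD also include the spread between libraries. Alternatives were RLE factors, library totals, quantile normalization with limma 3.58.1, TMM without the mitochondrial and the 20 most abundant features, no filter, DESeq2 1.42.0, the compared groups alone, a replicate block and leaving out each library.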

Additional observations from a re-analysis of the deposited data

How the results depend on the processing

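The log2 fold changes of members kept their direction and side of the threshold under the alternatives, apart from those of ctr6 with MMS, zym1 and cuf1 given in the report and ccs1 below; beside those given in the report, sizes moved by over 1.5 times for ccs1 (-0.25, quantile normalization) and ctr6 (-0.18, library totals) between hydroxyurea and MMS, zym1 between hydroxyurea and phleomycin (0.16, library totals), cuf1 between MMS and phleomycin (0.020 without MMS replicate 2), and ctr6 with camptothecin (-0.019 under quantile normalization). The causes were not tested. Under quantile normalization ccs1 reversed between MMS and phleomycin (-0.074), sod1 with camptothecin was -1.83 in place of -1.92, copper delivery genes past the threshold with hydroxyurea numbered 4 in place of 7, and copper enzyme genes between MMS and phleomycin 1 in place of 3. With library totals alone, copper enzyme genes past it with hydroxyurea numbered 3 in place of 1, and the median of all features was 0.21 for hydroxyurea and 0.10 for phleomycin against untreated cells. The replicate block changed no call of a member (sod1 with hydroxyurea was -0.58); differences between replicates correlated between groups by -0.053 to 0.037, so the numbers only name libraries. Leaving out a library left sod1 with camptothecin at -1.93 to -1.91. With 2 libraries a group, a lone remaining library is assumed to vary like the other groups. Depth did not limit the members, which held 1283 counts or more, but it limits SPNCRNA.923, mfc1, cmc1, cmc2, cao2 and cuf2.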
